A study of Mus musculus with 32 samples.

Results

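The 10 genes described here serve glucose use and the response to low oxygen: Slc2a1, Hk2, Pfkp, Pgk1, Ldha, Pdk1, Vegfa, Adm, Bnip3 and Egln3. They were chosen by symbol, with earlier results of these data known. Each row of the read count table that carries 1 of these symbols was taken. That gave 11 rows of 39017 (10 genes of the 18484 that were tested). The eleventh row also bears the symbol Pgk1, but its identifier (ENSMUSG00000066632) belongs to the processed pseudogene Pgk1-rs7 in GENCODE M21, so counts of genes below use the X-linked Pgk1 (ENSMUSG00000062070). All 10 genes passed the filter on low counts. RNA was sequenced from cultured mouse embryonic fibroblasts of 4 lines. A line without ATM, the kinase that signals DNA double-strand breaks, is set against the wild-type line wtATM. A line without ATMIN, an ATM-interacting protein, is set against the wild-type line wtATMIN. Each line was kept with 1 µM aphidicolin (APH), an inhibitor of replicative DNA polymerases, or with its solvent DMSO, for 24 h or 4 h. That gives 16 groups of 2 samples: APH 24 h, DMSO 24 h, APH 4 h and DMSO 4 h in each line. The labels give neither the knock-out alleles nor the ages of the embryos, and each genotype is 1 line, so that the effects of genotype and of line cannot be told apart. Whether replicates are separate cultures is not stated either, so p-values measure only the spread between these samples, which may be technical.

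Cells take up glucose through GLUT1, the product of Slc2a1, and trap it as glucose 6-phosphate by hexokinase 2 (Hk2). Phosphofructokinase (Pfkp) and phosphoglycerate kinase (Pgk1) act further down glycolysis, and lactate dehydrogenase A (Ldha) turns pyruvate into lactate. Pyruvate dehydrogenase kinase (Pdk1) restrains the oxidation of pyruvate in the mitochondria. When oxygen is low, the hypoxia-inducible factors (HIF-1α and HIF-2α with their partner ARNT) escape hydroxylation and degradation and switch on many of these genes. Among their known targets are also Vegfa and Adm, which encode secreted angiogenic peptides, Bnip3, a mitophagy receptor on the outer mitochondrial membrane, and Egln3, a prolyl hydroxylase that marks HIF for degradation. Glycolytic genes also answer to MYC and to growth factor signalling in cells with ample oxygen.

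ACGTG, a form of the binding core of HIF and called the core here, was looked for on both strands. The RefSeq windows ran from 250 bases before to 50 bases after each gene's start (GRCm38.p6, the build of the count table's mm10). The core was present for 7 of the 10 genes and for 5886 of 27025 genes with a window (21.78%). A palindromic CACGTG counts on both strands and is also the E-box that MYC and MondoA bind, so these matches overlap. All 10 genes matched by symbol. No ACGTG lay on either strand in the windows of Pdk1, Pfkp and Adm, and that of Vegfa lay only at a start inside the gene. Other forms of the core were not looked for, so these windows may hold them. The following stretches show a core of each of the other 6 genes upstream of a start that RefSeq gives, 5′ to 3′ on the gene's strand, with the core or its reverse complement in capitals, because these are the letters that the known regulator of these genes binds.
Slc2a1 (chr4:119108679-119108728, plus strand): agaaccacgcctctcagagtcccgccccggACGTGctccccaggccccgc
Hk2 (chr6:82774487-82774536, minus strand): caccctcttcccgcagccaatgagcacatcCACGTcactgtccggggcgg
Ldha (chr7:46845740-46845789, plus strand): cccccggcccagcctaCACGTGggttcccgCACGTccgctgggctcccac
Bnip3 (chr7:138909594-138909643, minus strand): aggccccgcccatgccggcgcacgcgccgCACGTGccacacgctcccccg
Egln3 (chr12:54204084-54204124, minus strand): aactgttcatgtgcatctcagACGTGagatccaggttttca
Pgk1 (chrX:106186939-106186988, plus strand): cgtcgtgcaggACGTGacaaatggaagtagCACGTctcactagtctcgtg
The core began at position -36 from the start of Slc2a1 and at position -229 from that of Egln3, so its distance varied. Ldha and Bnip3 held the palindrome CACGTG. The Ldha stretch lies inside the gene as GENCODE M21 draws it, since RefSeq's start is not GENCODE's outermost one, and that of Slc2a1 reaches past GENCODE's outermost start. Each match describes letters in a window and not a bound site.

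In GENCODE M21 (GRCm38) the transporter gene is Slc2a1 (ENSMUSG00000028645, chr4:119108711-119137983). The glycolytic enzymes are encoded by Hk2 (ENSMUSG00000000628, chr6:82725025-82774454), Pfkp (ENSMUSG00000021196, chr13:6579768-6648777), Pgk1 (ENSMUSG00000062070, chrX:106187100-106203699) and Ldha (ENSMUSG00000063229, chr7:46841475-46855627), and the kinase that restrains pyruvate oxidation by Pdk1 (ENSMUSG00000006494, chr2:71873224-71903858). The secreted peptides are encoded by Vegfa (ENSMUSG00000023951, chr17:46016993-46032369) and Adm (ENSMUSG00000030790, chr7:110627661-110629820). The mitophagy receptor and the prolyl hydroxylase are encoded by Bnip3 (ENSMUSG00000078566, chr7:138890836-138909519) and Egln3 (ENSMUSG00000035105, chr12:54178981-54203860). All 10 are protein-coding genes, and the counts give 1 value a gene, so exons and UTRs cannot be told apart.

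Each library held between 9321329 and 21020662 reads counted in genes. Levels are given in CPM, the read count scaled to a common library size that was adjusted by the trimmed mean of M values (TMM). Gm42418, a locus that overlaps ribosomal RNA sequence, took 252 to 5754 CPM in the 24 h libraries and 13783 to 97900 CPM in the 4 h libraries, so culture time and whatever else differed between those libraries cannot be told apart. The 2 libraries of ATM knock-out APH 4 h stood apart. Replicate 1 had the 97900 CPM of Gm42418 and a TMM scaling factor of 0.849, where no library of the other groups lay below 0.912. Replicate 2 was the shallowest library and had reads on 455 olfactory and vomeronasal receptor genes, against 22 to 106 in the other groups. Of 8 fibroblast markers, 7 had at least 40.8 CPM in every library and Thy1 had a median of 0.310 CPM with 0 in some, and the 8 summed to between 7161 and 31697 CPM. The endothelial, epithelial and blood marker sums stayed at or below 2.18, 16.4 and 19.9 CPM. Among the blood markers, Ptprc, the pan-leukocyte marker, had a median of 0. Csf1r had 7.29 to 15.6 CPM and Cd68 0.891 to 6.89 CPM over all libraries. In bulk RNA, fewer cells of a type and less RNA per cell cannot be told apart. Over the 4 conditions, Atmin had 3.77 to 6.77 CPM in ATMIN knock-out samples, against 20.4 to 32.9 CPM in wtATMIN samples, with no overlap. Atm had 17.8 to 45.5 CPM in ATM knock-out samples, against 43.1 to 65.1 CPM in wtATM samples, and overlapped with APH at 24 h, and whether these reads lie in the deleted part cannot be said because the alleles are not given.

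Without APH, most of these genes were lower after 24 h of culture than after 4 h. In DMSO, 5 of the 10 fell and 2 rose in ATM knock-out cells, while 10 fell in wtATM, 9 in ATMIN knock-out and 9 in wtATMIN cells. By the same test, 24.1%, 23.3%, 23.8% and 26.3% of the 18484 genes tested were called lower in these lines, and 24.6%, 23.1%, 23.4% and 29.1% were called higher. In wtATM, ATMIN knock-out and wtATMIN cells the number of the 10 called higher was 0 in edgeR, at an unadjusted p under 0.05 and in DESeq2 alike. The median log2 fold change of the 10 genes was -0.15 in ATM knock-out, -1.15 in wtATM, -1.07 in ATMIN knock-out and -0.93 in wtATMIN cells, against medians over all genes between 0 and 0.03. Calls rest on the quasi-likelihood test of edgeR, at a p under 0.05 after Benjamini-Hochberg adjustment over all genes tested, and log2 fold changes carry their standard error. The 24 h and 4 h libraries differed in Gm42418 as above. With that sequence left out before scaling, 1 of the 370 values given for the members lost its call and no value gained a call, and the lost call is not among these time changes. That setting bears on scaling only and cannot separate culture time from other differences between those libraries.

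**Figure D1:**
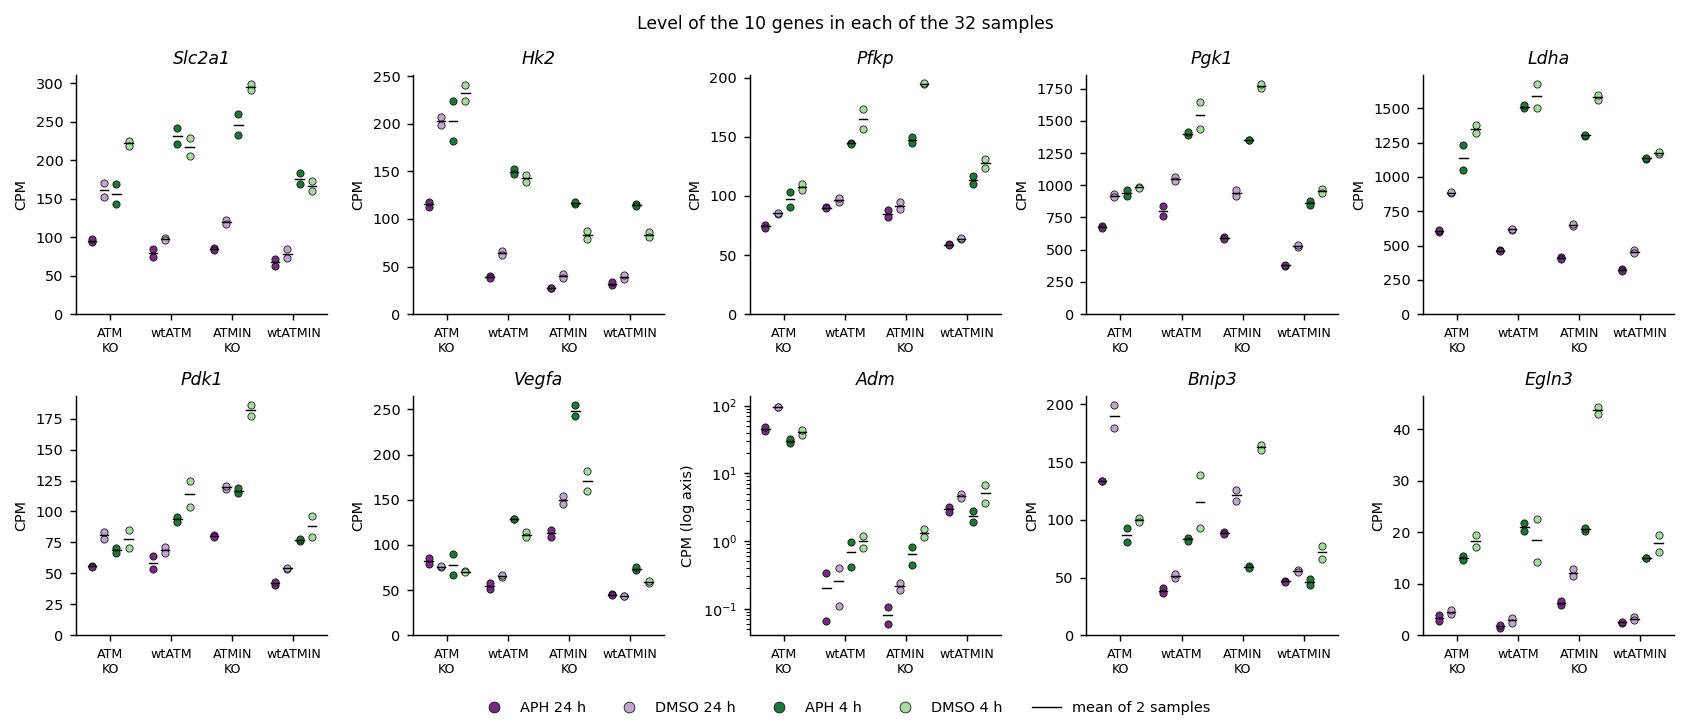
Level of each of the 10 genes (CPM, linear axes from 0, log axis for Adm) in all 32 samples, by line and condition, with 1 point per sample and a bar at the mean of 2. Within wtATM, ATMIN knock-out and wtATMIN cells the 24 h points of Ldha, Hk2 and Slc2a1 lie below the 4 h points, and Adm lies highest in ATM knock-out cells, at 28.4 CPM or more (1 to 27 reads a library in wtATM and ATMIN knock-out cells).

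Egln3, the HIF prolyl hydroxylase, had the largest fall of the 10 genes in the mean over lines (-2.25 ± 0.09, adjusted p = 5.48e-22). In ATM knock-out cells it had 4.08 and 4.89 CPM at 24 h, against 19.5 and 17.2 CPM at 4 h. In wtATM cells it had 3.41 and 2.38 CPM at 24 h, against 22.7 and 14.3 CPM at 4 h. The 24 h and 4 h samples did not overlap in either line, and the 24 h level was 4.10-fold lower in ATM knock-out and 6.28-fold lower in wtATM cells. ATMIN knock-out cells had 11.5 and 12.8 CPM at 24 h, against 44.4 and 43.1 CPM at 4 h, and wtATMIN cells had 3.47 and 2.92 CPM at 24 h, against 19.6 and 16.2 CPM at 4 h. The log2 changes were -2.03 ± 0.18 in ATM knock-out, -2.65 ± 0.19 in wtATM, -1.85 ± 0.14 in ATMIN knock-out and -2.46 ± 0.18 in wtATMIN cells, and the highest of the 4 adjusted p was 2.11e-11.

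The glucose transporter, Hk2, Pfkp and Ldha fell in each line. Ldha, which makes lactate, had 883 and 888 CPM at 24 h, against 1324 and 1381 CPM at 4 h in ATM knock-out cells. The same gene had 614 and 623 CPM at 24 h, against 1679 and 1501 CPM at 4 h in wtATM cells. It had 646 and 654 CPM at 24 h, against 1564 and 1595 CPM at 4 h in ATMIN knock-out cells and 468 and 443 CPM at 24 h, against 1169.5 and 1179.9 CPM at 4 h in wtATMIN cells. No 24 h sample of Ldha reached any 4 h sample of its line, and the log2 changes were -0.61 ± 0.06, -1.36 ± 0.06, -1.28 ± 0.06 and -1.37 ± 0.06 in that order of lines. Hk2, which commits glucose to metabolism, had 199 and 207 CPM at 24 h, against 241 and 223 CPM at 4 h in ATM knock-out cells. In wtATM cells it had 66.1 and 62.3 CPM at 24 h, against 146 and 139 CPM at 4 h. In ATMIN knock-out cells the values were 41.7 and 37.8 CPM at 24 h, against 87.3 and 78.6 CPM at 4 h, and in wtATMIN cells 37.4 and 40.7 CPM at 24 h, against 86.2 and 81.1 CPM at 4 h. Hk2 was lower at 24 h without overlap in every line, with log2 changes of -0.19 ± 0.07 in ATM knock-out cells and between -1.15 and -1.06 elsewhere. The ATM knock-out call was lost without DMSO 4 h replicate 1 (-0.14) or DMSO 24 h replicate 1 (-0.16) or 2 (-0.22), with libraries scaled by size alone (-0.15) and with no filter on low counts (-0.18). Slc2a1, the GLUT1 gene, had 170.1 and 152 CPM at 24 h, against 226 and 219 CPM at 4 h in ATM knock-out cells. It had 99.2 and 96.4 CPM at 24 h, against 229.5 and 206 CPM at 4 h in wtATM cells. ATMIN knock-out cells had 123 and 118 CPM at 24 h, against 299.6 and 291 CPM at 4 h, and wtATMIN cells 85.0 and 72.5 CPM at 24 h, against 173 and 160.1 CPM at 4 h. In each line its 24 h samples lay below its 4 h samples, and its 4 log2 changes, -0.46, -1.15, -1.30 and -1.07, all passed the test.

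Pfkp, the platelet-type phosphofructokinase, fell in every line, with log2 changes of -0.34 ± 0.07 in ATM knock-out, -0.77 ± 0.07 in wtATM, -1.09 ± 0.07 in ATMIN knock-out and -1.002 ± 0.07 in wtATMIN cells. Pgk1, which makes ATP in glycolysis, had log2 changes of -0.10 ± 0.06, -0.56 ± 0.06, -0.92 ± 0.06 and -0.86 ± 0.06 in the same order, and the change in ATM knock-out cells did not pass (adjusted p = 0.189). Reads of Pgk1 and of its pseudogene Pgk1-rs7 may be shared: the ratio of their counts stayed between 3.18 and 3.60 in all 32 libraries. Pgk1 values are therefore uncertain in level and in the size of the time change, and Pgk1-rs7 had log2 changes between -0.80 and -0.01. Pdk1, which restrains pyruvate oxidation, changed by -0.73 ± 0.09 in wtATM, -0.60 ± 0.09 in ATMIN knock-out and -0.70 ± 0.09 in wtATMIN cells. In ATM knock-out cells Pdk1 had 77.7 and 83.6 CPM at 24 h, against 85.0 and 70.7 CPM at 4 h, and those samples overlapped (0.05 ± 0.09, adjusted p = 0.683).

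**Figure D2:**
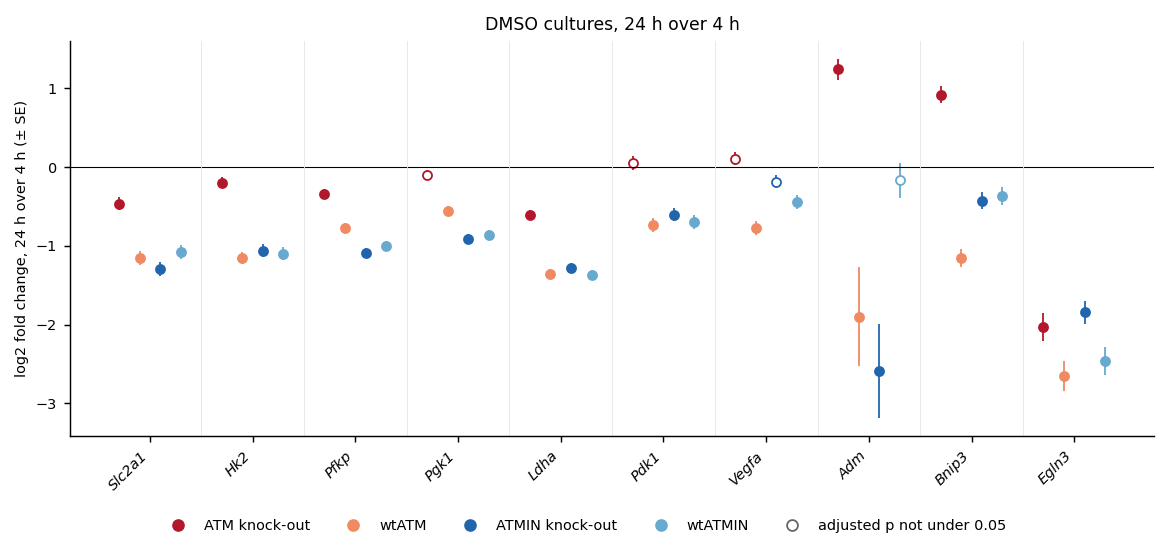
Log2 fold change of the 10 genes in DMSO, 24 h over 4 h, with its standard error, in ATM knock-out, wtATM, ATMIN knock-out and wtATMIN cells (filled points have an adjusted p under 0.05). Egln3 lies lowest or near lowest in each line, between -2.65 and -1.85, and Bnip3 (0.92) and Adm (1.24) lie above 0 in ATM knock-out cells only.

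Bnip3 and Adm had called time changes of both signs among the lines, and Vegfa had called falls only. Bnip3, the mitophagy receptor, had 179.6 and 199 CPM at 24 h, against 102 and 98.2 CPM at 4 h in ATM knock-out cells, a rise of 0.92 ± 0.11 on the log2 scale (adjusted p = 8.16e-08). In wtATM cells it had 50.02 and 53.4 CPM at 24 h, against 139 and 92.8 CPM at 4 h (-1.16 ± 0.11, adjusted p = 4e-09). The 2 lines moved in opposite directions with no overlap between times. ATMIN knock-out cells had 116 and 126 CPM at 24 h, against 164 and 161 CPM at 4 h (-0.43 ± 0.11), and wtATMIN cells had 56.5 and 54.8 CPM at 24 h, against 77.7 and 66.4 CPM at 4 h (-0.37 ± 0.11). The last call was lost without wtATMIN DMSO 4 h replicate 1 (-0.26, adjusted p = 0.123) and with libraries scaled by size alone (-0.25, adjusted p = 0.085). A fit to the wtATM DMSO groups alone gave -1.17, adjusted p = 0.082 for Bnip3 there.

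Vegfa, the main angiogenic growth factor, fell in wtATM cells (-0.77 ± 0.09, adjusted p = 3.72e-09) and in wtATMIN cells (-0.44 ± 0.09, adjusted p = 7.59e-05). In ATMIN knock-out cells it had 154 and 145 CPM at 24 h, against 159 and 182 CPM at 4 h, which did not overlap but did not pass the test (-0.19 ± 0.08, adjusted p = 0.0583). It passed without ATMIN knock-out DMSO 4 h replicate 1 (-0.28, adjusted p = 0.0241) and without 1 or both of the ATM knock-out APH 4 h libraries, which share in the estimate of the spread (-0.18, adjusted p = 0.0147 without both). In ATM knock-out cells it had 75.0 and 76.4 CPM at 24 h, against 70.7 and 69.7 CPM at 4 h (0.11 ± 0.09, adjusted p = 0.314). Adm, the precursor of the vasodilator adrenomedullin, had 94.2 and 97.0 CPM at 24 h, against 36.6 and 44.2 CPM at 4 h in ATM knock-out cells, a rise of 1.24 ± 0.13 (adjusted p = 6.52e-09). In wtATM and ATMIN knock-out cells Adm had few reads. The wtATM libraries held 2 and 7 reads at 24 h, against 15 and 12 reads at 4 h. The ATMIN knock-out libraries held 4 and 3 reads at 24 h, against 27 and 21 reads at 4 h. Both falls were called (adjusted p = 0.0141 and 0.000577), but their fitted sizes depend on the prior count and are not given, and the wtATM call was lost without 4 h replicate 1 (adjusted p = 0.121) or 24 h replicate 1 (adjusted p = 0.17). In wtATMIN cells Adm had 4.92 and 4.26 CPM at 24 h, against 3.67 and 6.63 CPM at 4 h, and these samples overlapped.

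The difference between the ATM knock-out line and wtATM in this time change was tested directly. It was higher in the knock-out line for 9 of the 10 genes, where 5.64% of all genes were called higher. The number called lower was 0 by edgeR, at an unadjusted p under 0.05 and by DESeq2, where 5.03% of all genes were. The difference in log2 change was 2.08 ± 0.16 for Bnip3, 0.96 ± 0.11 for Hk2, 0.88 ± 0.12 for Vegfa and 0.75 ± 0.09 for Ldha, with adjusted p of 2.28e-10, 3.86e-08, 2.04e-06 and 9.98e-08. Pdk1, Slc2a1, Pgk1 and Pfkp differed by 0.78, 0.69, 0.46 and 0.43. Egln3 was the exception (0.62 ± 0.27, adjusted p = 0.165), and it passed without wtATM DMSO 4 h replicate 2 (0.92, adjusted p = 0.0171). In wtATM DMSO 4 h, replicate 1 was above replicate 2 for 10 of the 10 genes, by ratios of 1.05 to 1.58. Without replicate 1 the count of genes called higher was 9, and without replicate 2 it was 10. Between ATMIN knock-out and wtATMIN cells the time change differed for Adm alone (adjusted p = 0.00781), where 9.76% of all genes were called lower and 7.77% higher, and that call was lost without ATMIN knock-out DMSO 4 h replicate 1 or DMSO 24 h replicate 2 (adjusted p = 0.0527 and 0.0646).

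In the cultures with APH, which are other libraries, most of the 10 genes were again lower at 24 h. The 24 h cultures also had the drug for longer, so time and drug exposure cannot be told apart in this comparison. With APH, 7 of the 10 genes fell and 2 rose in ATM knock-out cells, 9 fell in wtATM, 9 fell and 1 rose in ATMIN knock-out and 8 fell in wtATMIN cells. Of all genes, 21%, 26.2%, 28% and 29.2% were called lower in those lines, and 24.7%, 27.8%, 29.7% and 32.8% higher. Hk2 had 39.6 and 38.3 CPM at 24 h, against 152 and 147 CPM at 4 h in wtATM cells with APH (-1.94 ± 0.08), and 27.7 and 27.3 CPM at 24 h, against 115 and 117 CPM at 4 h in ATMIN knock-out cells (-2.08 ± 0.08). Egln3 changed by -3.60 ± 0.21 in wtATM and by -1.73 ± 0.16 in ATMIN knock-out cells. Bnip3 rose in ATM knock-out (0.63 ± 0.11) and in ATMIN knock-out cells (0.59 ± 0.11), fell in wtATM cells (-1.10 ± 0.12) and was at 0.02 in wtATMIN cells (adjusted p = 0.884). Adm also rose in ATM knock-out cells (0.57 ± 0.15, adjusted p = 0.00206). The ATM knock-out values rest on the libraries that stood apart: without its APH 4 h replicate 1 the counts were 3 higher and 6 lower, and without replicate 2 they were 2 higher and 7 lower. The fall of Pdk1 there (-0.30 ± 0.10) was lost without APH 4 h replicate 1 (-0.24) or APH 24 h replicate 2 (-0.28). In ATMIN knock-out cells Adm held 2 and 1 reads at 24 h, against 14 and 6 reads at 4 h, and its call was lost without APH 4 h replicate 1.

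APH itself, set against DMSO at the same time, went with lower levels of most of these genes at 24 h. At 24 h, 8 of the 10 genes were lower in ATM knock-out, 7 in wtATM, 8 in ATMIN knock-out and 6 in wtATMIN cells. The number higher was 0 in each of the 4 lines by edgeR, at an unadjusted p under 0.05 and by DESeq2. Of all genes, 12.2%, 14.3%, 15.8% and 15.3% were called lower and 15.7%, 14.4%, 14.3% and 13.6% higher in those lines. Hk2, Slc2a1, Pgk1 and Ldha were called lower in each line. Without any 1 of the compared libraries the counts lower were 7 in ATM knock-out, 4 to 6 in wtATM, 8 in ATMIN knock-out and 3 to 5 in wtATMIN cells. Ldha had 595 and 617 CPM with APH, against 883 and 888 CPM in DMSO in ATM knock-out cells, and 466 and 458 CPM with APH, against 614 and 623 CPM in DMSO in wtATM cells. It had 417 and 403 CPM with APH, against 646 and 654 CPM in DMSO in ATMIN knock-out cells, and 326 and 318 CPM with APH, against 468 and 443 CPM in DMSO in wtATMIN cells. APH and DMSO samples of Ldha did not overlap in any line, and the log2 changes lay between -0.67 and -0.42. Pgk1 changed by -0.44 ± 0.06, -0.39 ± 0.06, -0.67 ± 0.06 and -0.47 ± 0.06 in ATM knock-out, wtATM, ATMIN knock-out and wtATMIN cells. Hk2 had 113 and 118 CPM with APH, against 199 and 207 CPM in DMSO in ATM knock-out cells (-0.82 ± 0.08, adjusted p = 2e-10), and its smallest change was in wtATMIN cells (-0.28 ± 0.09, adjusted p = 0.0125). That call was lost without wtATMIN DMSO 24 h replicate 2 (-0.22) or APH 24 h replicate 1 (-0.23).

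**Figure D3:**
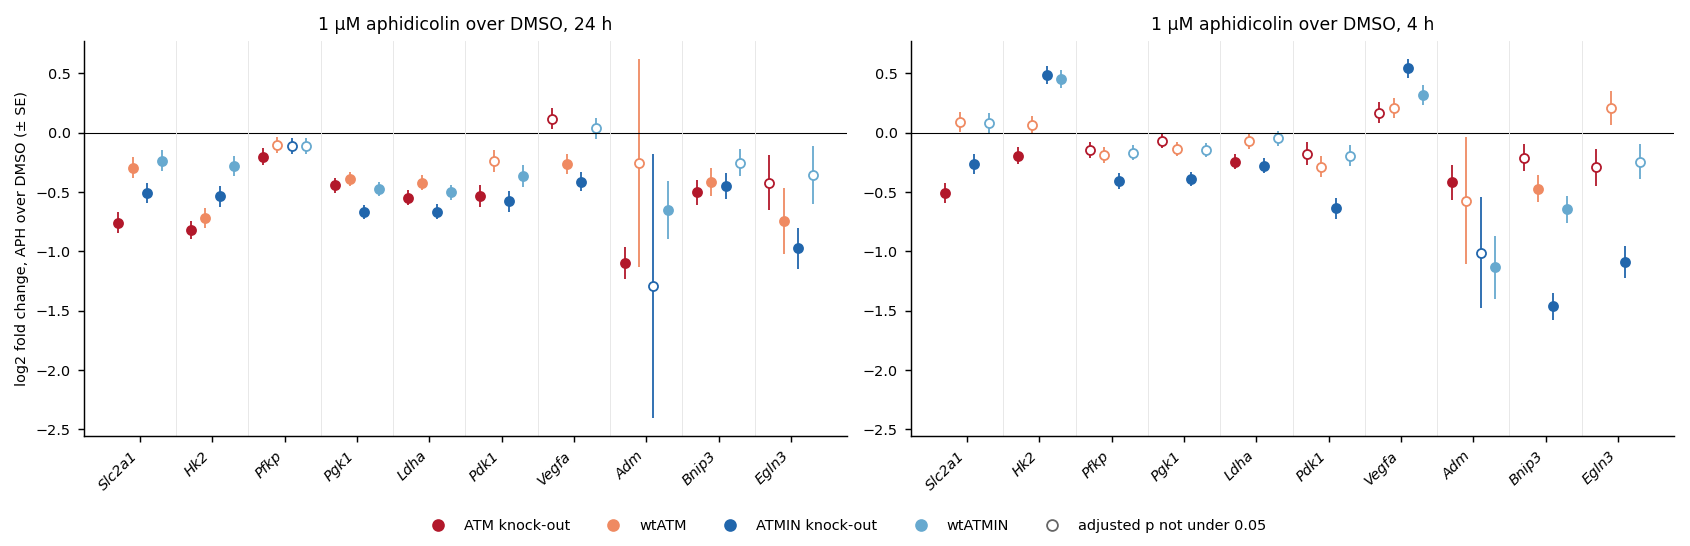
Log2 fold change of the 10 genes with 1 µM aphidicolin over DMSO, with its standard error, at 24 h (left) and 4 h (right) in the 4 lines (filled points have an adjusted p under 0.05). At 24 h every filled point lies below 0, and at 4 h Hk2 and Vegfa lie above 0 in ATMIN knock-out and wtATMIN cells while Bnip3 reaches -1.46 in ATMIN knock-out cells.

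Slc2a1 had 93.4 and 97.5 CPM with APH, against 170.1 and 152 CPM in DMSO in ATM knock-out cells at 24 h (-0.76 ± 0.09, adjusted p = 2.1e-08). In wtATM cells it had 74.5 and 85.0 CPM with APH, against 99.2 and 96.4 CPM in DMSO (-0.30 ± 0.09, adjusted p = 0.00974), a call that was lost without DMSO 24 h replicate 1 (-0.27) or APH 24 h replicate 1 (-0.20). In wtATMIN cells it changed by -0.23 ± 0.09 (adjusted p = 0.0435), and this was lost in 12 of the 32 fits without a library, down to -0.13 without wtATMIN DMSO 24 h replicate 1. The Slc2a1 response was more negative in ATM knock-out than in wtATM cells at 24 h (difference -0.46 ± 0.12, adjusted p = 0.0235). The same held at 4 h (difference -0.60 ± 0.12, adjusted p = 0.00193). The 24 h difference was lost in fits without 6 of the 8 libraries it uses, with values between -0.49 and -0.36 in those fits, and the 4 h difference passed in each fit without a library but not in a fit to the compared groups only (-0.61, adjusted p = 0.116). Of all genes, 1.23% at 24 h and 5.35% at 4 h were called lower for this difference, against 1 of the 10 genes at each time. Adm had 41.8 and 47.7 CPM with APH, against 94.2 and 97.0 CPM in DMSO in ATM knock-out cells (-1.10 ± 0.13, adjusted p = 1.65e-07). In wtATMIN cells the Adm change (-0.65 ± 0.25) was lost without any 1 of the 4 libraries (between -0.81 and -0.54). Vegfa was lower with APH in ATMIN knock-out cells (-0.41 ± 0.08, adjusted p = 0.000176) and in wtATM cells (-0.26 ± 0.09, adjusted p = 0.022). The wtATM call was lost without DMSO 24 h replicate 1 or 2 or APH 24 h replicate 1 (between -0.28 and -0.17). Other calls that rest on single libraries at 24 h are Egln3 in wtATM cells (-0.74 ± 0.28, and -0.45 without DMSO replicate 1 or -0.48 without APH replicate 1), Bnip3 in wtATM cells (-0.42 ± 0.12, and -0.37 without DMSO replicate 2 or -0.34 without APH replicate 2) and Pfkp in ATM knock-out cells (-0.20 ± 0.07, lost without any 1 of the 4 libraries).

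After 4 h, 1 to 9 of the 10 genes were called with APH, depending on the line. In ATMIN knock-out cells 7 of the 10 genes were lower with APH and 2 were higher, where 10.9% and 9.48% of all genes were. In wtATMIN cells 2 were lower and 2 higher, where 7.75% and 7.25% of all genes were. In ATM knock-out cells 4 were lower and 0 higher (0 at an unadjusted p under 0.05, 0 by DESeq2), where 15.4% and 14% of all genes were. In wtATM cells Bnip3 alone was called, and 2.76% of all genes were lower and 2.82% higher. Bnip3 had 59.7 and 58.3 CPM with APH, against 164 and 161 CPM in DMSO in ATMIN knock-out cells, without overlap (-1.46 ± 0.11, adjusted p = 1.11e-10). It had 48.5 and 43.5 CPM with APH, against 77.7 and 66.4 CPM in DMSO in wtATMIN cells (-0.65 ± 0.12, adjusted p = 0.000263). Egln3 had 20.3 and 20.9 CPM with APH, against 44.4 and 43.1 CPM in DMSO in ATMIN knock-out cells (-1.09 ± 0.13, adjusted p = 1e-07), and Pdk1 and Pgk1 were lower there as well (-0.64 ± 0.09 and -0.39 ± 0.06). Vegfa went the other way, with 243 and 255 CPM with APH, against 159 and 182 CPM in DMSO in ATMIN knock-out cells (0.54 ± 0.08, adjusted p = 3.07e-06). Hk2 was also higher with APH (0.49 ± 0.08 in ATMIN knock-out and 0.45 ± 0.08 in wtATMIN cells). The wtATM call of Bnip3 (-0.47 ± 0.11, adjusted p = 0.00849) was lost without DMSO 4 h replicate 1 (-0.16, adjusted p = 0.559) or APH 4 h replicate 2 (-0.45, adjusted p = 0.088), and was -0.74 without DMSO 4 h replicate 2. The wtATMIN call of Vegfa (0.32 ± 0.09) was lost without either DMSO 4 h replicate or APH 4 h replicate 2 (0.28 to 0.34), and that of Adm (-1.13 ± 0.26) without DMSO 4 h replicate 2 (-0.63) or APH 4 h replicate 1 (-0.88). In ATM knock-out cells Slc2a1 had 169 and 143 CPM with APH, against 226 and 219 CPM in DMSO (-0.51 ± 0.08, adjusted p = 3.62e-05), and Hk2 (-0.19 ± 0.07), Ldha (-0.24 ± 0.06) and Adm (-0.42 ± 0.15) were also called lower. The counts in that line were 4 lower and 0 higher without APH 4 h replicate 1, where Hk2 was -0.37 and Ldha -0.38, and 2 lower and 1 higher without replicate 2, where Hk2 (-0.06) and Ldha (-0.14) were not called and Vegfa was higher (0.35). Without DMSO 4 h replicate 2 the calls of Hk2, Ldha and Adm were lost there (-0.25, -0.22 and -0.28), that of Hk2 also without DMSO 4 h replicate 1 (-0.15) and that of Adm without APH 4 h replicate 1 (-0.34). The Slc2a1 call in ATMIN knock-out cells (-0.26 ± 0.08) was lost without either DMSO 4 h replicate or APH 4 h replicate 1 (-0.29 to -0.18).

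The response of Bnip3 at 4 h was more negative in ATMIN knock-out than in wtATMIN cells (difference -0.82 ± 0.16, adjusted p = 0.00944), as was that of Egln3 (difference -0.84 ± 0.20, adjusted p = 0.0306). These are 2 of the 10 genes, where 0.325% of all genes were called lower. The Bnip3 difference did not pass without wtATMIN DMSO 4 h replicate 2, wtATMIN APH 4 h replicate 1 or ATMIN knock-out APH 4 h replicate 2 (between -0.80 and -0.71), and that of Egln3 did not pass in 7 of the 8 fits that left out a library of these groups (between -0.86 and -0.71). At 24 h the response of Vegfa was more negative in ATMIN knock-out cells (difference -0.45 ± 0.12, adjusted p = 0.038), where 1.42% of all genes were called lower, and this was lost without any 1 of the 8 libraries it uses (between -0.49 and -0.38). Within a line, the APH response at 24 h was lower than that at 4 h for Hk2, Pgk1 and Ldha in each of the 4 lines. For Hk2 that difference was -0.62 ± 0.11 in ATM knock-out, -0.79 ± 0.11 in wtATM, -1.02 ± 0.12 in ATMIN knock-out and -0.73 ± 0.12 in wtATMIN cells (adjusted p from 3.06e-08 to 5.43e-05), and these 4 calls held in every fit without a library. For Pgk1 the difference lay between -0.38 and -0.25, and for Ldha between -0.45 and -0.30, and in these ranges calls were lost without single libraries for Pgk1 in wtATM and ATMIN knock-out and for Ldha in wtATM and ATM knock-out cells. In all, 5 of the 10 genes in ATM knock-out, 6 in wtATM, 4 in ATMIN knock-out and 3 in wtATMIN cells had a lower response at 24 h, where 9.89%, 7.24%, 10.3% and 9.44% of all genes did and 12.1%, 7.87%, 10.8% and 9.12% had a higher one. Without any 1 of the 8 libraries used, these counts were 2 to 4, 2 to 6, 3 to 4 and 3 to 4 in the same order of lines. The lowest were 2 in ATM knock-out cells without DMSO 24 h replicate 2 or APH 24 h replicate 1, and 2 in wtATM cells without DMSO 4 h replicate 2. Pdk1 in ATM knock-out cells (-0.36 ± 0.13) lost its call without any 1 of 7 of the 8 libraries (-0.40 to -0.22), and Adm (-0.68 ± 0.20) without DMSO 4 h replicate 1, APH 4 h replicate 2, DMSO 24 h replicate 2 or APH 24 h replicate 1 (-0.65 to -0.54). In wtATM cells Egln3 (-0.95 ± 0.32) lost it without DMSO 4 h replicate 2, APH 4 h replicate 1 or replicate 1 of either 24 h group (-0.89 to -0.64), Slc2a1 (-0.39 ± 0.12) without replicate 2 of either 4 h group, either DMSO 24 h replicate or APH 24 h replicate 1 (-0.41 to -0.29), and Vegfa (-0.47 ± 0.12) without APH 24 h replicate 1 (-0.37). Bnip3 had the opposite sign in ATMIN knock-out cells (1.01 ± 0.16, adjusted p = 2.11e-05), with Pfkp (0.30 ± 0.09, adjusted p = 0.0192), where 10.8% of all genes were called higher, and the Pfkp call was lost in 5 of the 8 fits without a library used (between 0.24 and 0.30).

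**Figure D4:**
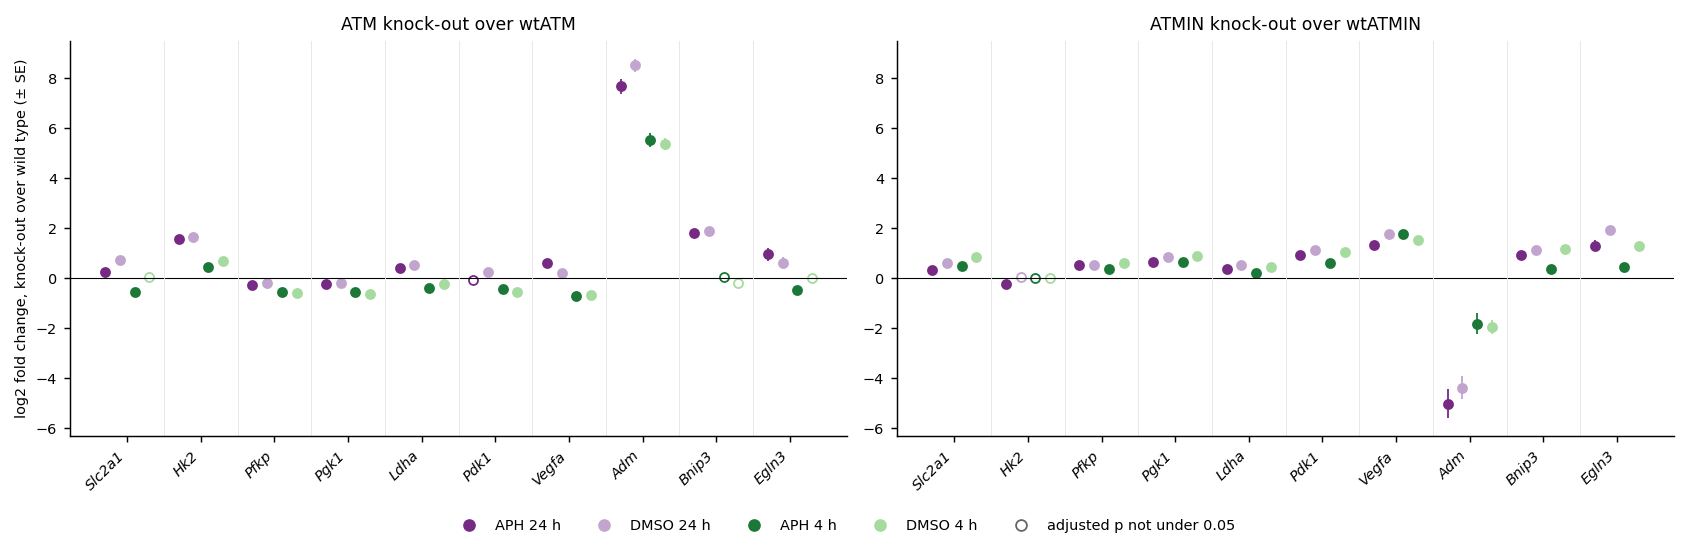
Log2 fold change of the 10 genes in the knock-out line over its wild-type line, with its standard error, for ATM (left) and ATMIN (right) in APH 24 h, DMSO 24 h, APH 4 h and DMSO 4 h (filled points have an adjusted p under 0.05). Adm lies highest for ATM and lowest for ATMIN, and Bnip3 for ATM lies at 1.79 and 1.87 at 24 h and at 0.06 and -0.21 at 4 h.

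Set against wtATM, the ATM knock-out line had more of these genes higher at 24 h than at 4 h. In DMSO at 24 h, 8 of the 10 were higher and 2 lower, where 29.5% and 29.8% of all genes were. In DMSO at 4 h, 2 were higher and 5 lower, where 27.3% and 27.9% of all genes were. With APH the counts were 7 higher and 2 lower at 24 h (31.5% and 29.9% of all genes) and 2 higher and 7 lower at 4 h (30.3% and 28.6%). Hk2 and Adm were higher in all 4 conditions. Adm had 28.4 to 97.0 CPM over the 8 ATM knock-out samples, against 0.0651 to 1.20 CPM (1 to 15 reads) over the 8 wtATM samples, with no overlap. Hk2 differed by 1.56 ± 0.08 in APH 24 h, 1.66 ± 0.08 in DMSO 24 h, 0.44 ± 0.08 in APH 4 h and 0.70 ± 0.08 in DMSO 4 h. Bnip3 differed by 1.87 ± 0.11 in DMSO 24 h (adjusted p = 2.73e-14), while at 4 h it had 102 and 98.2 CPM in ATM knock-out cells, against 139 and 92.8 CPM in wtATM cells, which overlapped (-0.21 ± 0.11, adjusted p = 0.117). That last difference passed without wtATM DMSO 4 h replicate 2 (-0.47, adjusted p = 7.38e-05). Pfkp and Pgk1 were lower in the ATM knock-out line in all 4 conditions, by log2 differences between -0.61 and -0.18 for Pfkp and between -0.65 and -0.19 for Pgk1. The smallest of them, in DMSO 24 h, were lost for Pfkp without wtATM replicate 2 or either knock-out replicate (-0.18 to -0.15) and for Pgk1 without wtATM replicate 1 or knock-out replicate 2 (-0.17 in both). Also in DMSO 24 h, the calls of Pdk1 (0.23 ± 0.09) and Egln3 (0.62 ± 0.23) were lost without replicate 2 of either line (0.18 in both for Pdk1, 0.39 and 0.49 for Egln3), and that of Vegfa (0.21 ± 0.09) without any 1 of the 4 libraries, so that 5 to 7 genes were higher and 0 or 1 lower when a library was left out. In APH 24 h, 5 to 7 were higher when a library was left out, with the calls of Slc2a1 (0.26 ± 0.09) and Egln3 (0.94 ± 0.28) lost without wtATM replicate 1 (0.17 and 0.68), that of Slc2a1 also without knock-out replicate 2 (0.23) and that of Egln3 without knock-out replicate 1 (0.70). Ldha was lower in the knock-out line at 4 h in DMSO (-0.23 ± 0.06, lost without wtATM replicate 1 at -0.15) and higher at 24 h (0.52 ± 0.06). The counts in APH 4 h were 2 higher and 7 lower without knock-out replicate 1, where Hk2 was 0.27, and 2 higher and 7 lower without replicate 2, and the Egln3 call (-0.49 ± 0.15) was lost without wtATM replicate 1 (-0.44).

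The ATMIN knock-out line had higher levels of 8 of the 10 genes than wtATMIN in every condition. Of all genes, 23.8%, 23.4%, 19.8% and 21.9% were called higher in APH 24 h, DMSO 24 h, APH 4 h and DMSO 4 h, and 26.8%, 26.2%, 22.3% and 23% lower. Slc2a1, Pfkp, Pgk1, Ldha, Pdk1, Vegfa, Bnip3 and Egln3 were called higher each time. Vegfa had the largest difference among them in APH 24 h, APH 4 h and DMSO 4 h, and in DMSO 24 h it had 154 and 145 CPM in ATMIN knock-out cells, against 43.4 and 43.8 CPM in wtATMIN cells (1.78 ± 0.09, adjusted p = 4.56e-19). Egln3 had 11.5 and 12.8 CPM in knock-out cells, against 3.47 and 2.92 CPM in wtATMIN cells in the same condition (1.91 ± 0.19, adjusted p = 8.55e-11). Bnip3 differed by 0.92 ± 0.11 in APH 24 h, 1.12 ± 0.11 in DMSO 24 h, 0.36 ± 0.12 in APH 4 h and 1.18 ± 0.11 in DMSO 4 h. Pdk1 differed by 0.60 to 1.14, Pgk1 by 0.64 to 0.89, Slc2a1 by 0.34 to 0.83, Pfkp by 0.37 to 0.61 and Ldha by 0.20 to 0.51. Hk2 did not pass in 3 conditions, with 0.03 in DMSO 24 h, 0.02 in APH 4 h and -0.01 in DMSO 4 h, and was lower in APH 24 h (-0.22 ± 0.09, adjusted p = 0.037). That call was lost without any 1 of the 4 libraries of this comparison (-0.24 to -0.12). Adm was lower in the knock-out line in all 4 conditions. It had 1 to 27 reads (0.0589 to 1.53 CPM) over the 8 ATMIN knock-out samples, against 31 to 112 reads (1.88 to 6.63 CPM) over the 8 wtATMIN samples, with no overlap. In APH 4 h the calls of Bnip3 and Ldha were lost without 2 of the 4 libraries each, and that of Egln3 without 3 of them: without wtATMIN replicate 2 or knock-out replicate 1 for Bnip3 (0.28 and 0.34), wtATMIN replicate 1 or knock-out replicate 2 for Ldha (0.19 in both), and either wtATMIN replicate or knock-out replicate 2 for Egln3 (0.43 to 0.45).

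The wild-type lines also differed from each other. In DMSO, 7 of the 10 genes were higher in wtATM than in wtATMIN at 24 h and 8 at 4 h, and Adm was lower at both times. Of all genes, 30.2% and 28.4% were called higher at 24 h and 4 h, and 31.5% and 28.8% lower. Pgk1 differed by 0.99 ± 0.06 at 24 h and 0.69 ± 0.06 at 4 h, and Vegfa by 0.58 ± 0.09 and 0.91 ± 0.09. Egln3 did not pass at either time (-0.15 and 0.04). Bnip3 was higher in wtATM at 4 h (0.68 ± 0.11, adjusted p = 8.24e-06), where the difference was 0.36 without wtATM replicate 1, and the Pdk1 call at 4 h was lost without that library (0.24, adjusted p = 0.0534) and was 0.24, against 0.38 with all libraries, without wtATMIN replicate 2. The Slc2a1 call at 24 h was lost without wtATMIN replicate 2 (0.20, adjusted p = 0.094).

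Other genes of the same pathways were taken from lists of known members, also chosen with earlier results of these data known. The lists share Pfkfb3, Pfkfb4, Egln1 and Bnip3l between them. Of 18 other glycolysis genes, 11 fell at 24 h in DMSO in ATM knock-out cells, 12 fell in wtATM, 2 rose and 12 fell in ATMIN knock-out, and 3 rose and 13 fell in wtATMIN cells. Of all genes, 24.1%, 23.3%, 23.8% and 26.3% fell and 24.6%, 23.1%, 23.4% and 29.1% rose in these lines. The median log2 changes of the 18 genes were -0.26, -0.77, -0.88 and -0.86, against medians over all genes between 0 and 0.03. Pyruvate kinase (Pkm) changed by -0.67 ± 0.07, -0.90 ± 0.07, -0.93 ± 0.07 and -1.14 ± 0.07 in that order of lines, and the liver-type phosphofructokinase Pfkl by -0.70 ± 0.09, -1.57 ± 0.09, -1.17 ± 0.09 and -1.42 ± 0.09. In the mean over lines Gpi1 fell by 0.85, Tpi1 by 0.75 and Gapdh by 0.81 on the log2 scale. Gapdh, often used as a constant reference, averaged 2231 ± 103 CPM at 24 h and 2736 ± 118 CPM at 4 h in ATM knock-out cells, and 1477 ± 7.01 CPM at 24 h and 2744 ± 136 CPM at 4 h in wtATM cells (SD, n = 2 each). The ATM knock-out change was higher than the wtATM change for 7 of the 18 genes, where 5.64% of all genes were called higher.

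The 33 other HIF targets had time changes of both signs. In DMSO at 24 h, 10 rose and 9 fell in ATM knock-out, 4 rose and 24 fell in wtATM, 3 rose and 22 fell in ATMIN knock-out, and 8 rose and 17 fell in wtATMIN cells, with median log2 changes of -0.05, -0.57, -0.56 and -0.26. The share of all genes called was 24.1%, 23.3%, 23.8% and 26.3% lower and 24.6%, 23.1%, 23.4% and 29.1% higher in these lines. The difference in time change between ATM knock-out and wtATM cells was higher for 18 of them and lower for 3, where 5.64% and 5.03% of all genes were. The 4 genes of this list with the lowest p in the mean over lines all fell, so no gene that rose is named. In that mean, Hmox1 (heme oxygenase) changed by -1.25 ± 0.03 and Ak4 (a mitochondrial adenylate kinase) by -1.05 ± 0.06. Fam162a changed by -0.75 ± 0.04 and Egln1, the main HIF prolyl hydroxylase, by -0.70 ± 0.04. The APH and knock-out counts that follow cover the ATMIN pair only, and do not show whether the ATM pair differed. With APH against DMSO, 2 rose and 19 fell in ATMIN knock-out cells at 24 h, where 14.3% and 15.8% of all genes did. At 4 h 3 rose and 22 fell there, where 9.48% and 10.9% of all genes did. In wtATMIN cells 6 rose and 11 fell at 24 h (13.6% and 15.3% of all genes), and 2 rose and 10 fell at 4 h (7.25% and 7.75%). Set against wtATMIN in DMSO, 19 were higher and 7 lower in ATMIN knock-out cells at 24 h (23.4% and 26.2% of all genes), and 24 were higher and 6 lower at 4 h (21.9% and 23%).

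**Figure D5:**
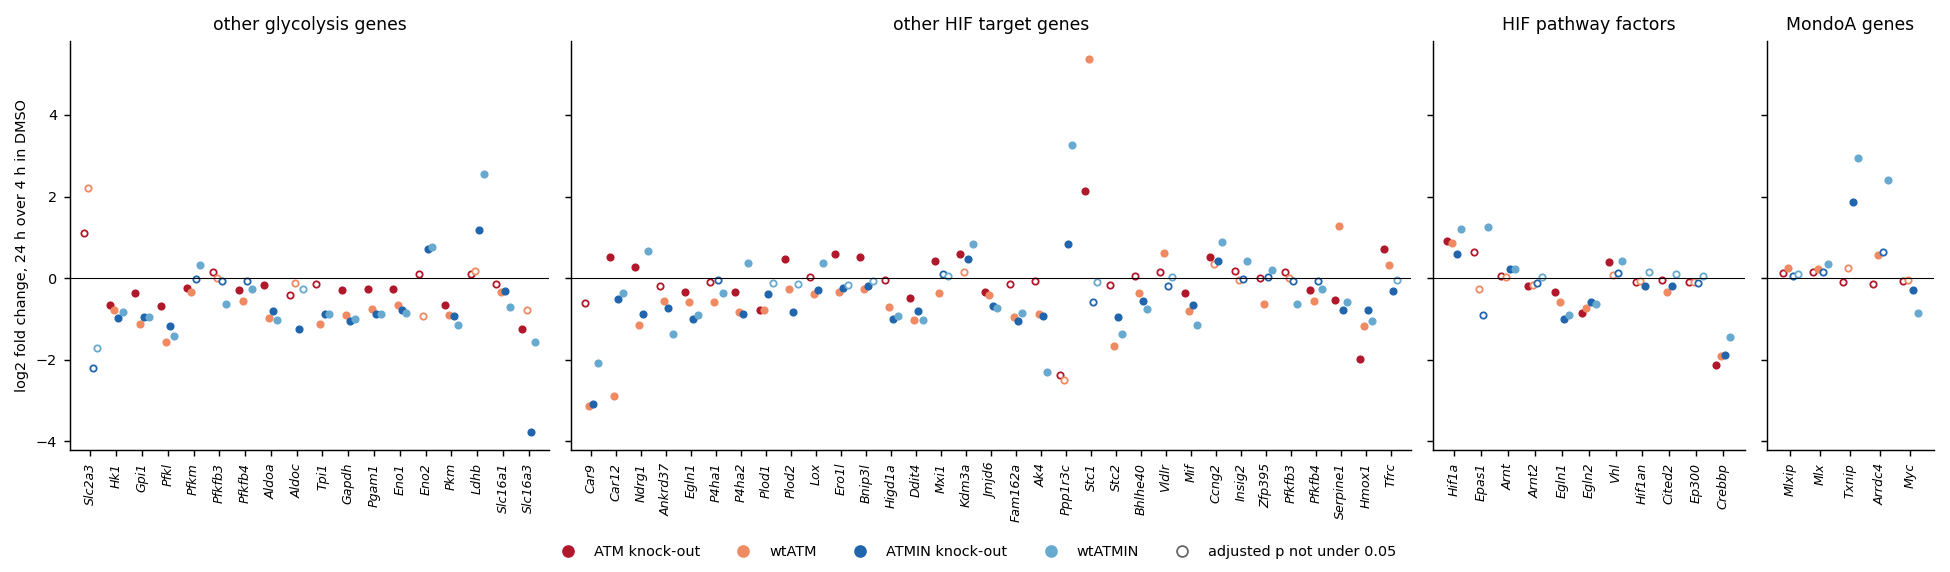
Log2 fold change in DMSO, 24 h over 4 h, of the listed glycolysis genes, HIF targets, HIF pathway factors and MondoA list genes (Myc among them) that were tested, in the 4 lines (filled points have an adjusted p under 0.05). Most glycolysis genes lie below 0, Hif1a lies above 0 in every line, and Crebbp lies between -2.13 and -1.45.

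Of 11 tested HIF pathway factors, 2 rose and 4 fell in ATM knock-out, 1 rose and 4 fell in wtATM, 2 rose and 5 fell in ATMIN knock-out, and 4 rose and 3 fell in wtATMIN cells. Of all genes 23.1% to 29.1% rose and 23.3% to 26.3% fell in these comparisons, and the median log2 changes of the 11 were -0.08, -0.17, -0.19 and 0.10. Hif1a, which encodes HIF-1α, averaged 125 ± 8.92 CPM at 24 h and 65.7 ± 3.33 CPM at 4 h in ATM knock-out cells. In wtATM cells it averaged 181 ± 1.22 CPM at 24 h and 99.0 ± 2.05 CPM at 4 h (SD, n = 2 each). Its messenger was higher at 24 h in each line, by 0.92 ± 0.09 in ATM knock-out, 0.87 ± 0.09 in wtATM, 0.60 ± 0.09 in ATMIN knock-out and 1.20 ± 0.09 in wtATMIN cells, while HIF-1α protein was not measured. Egln2, another HIF prolyl hydroxylase, fell in each line, between -0.85 and -0.58. Crebbp, a HIF coactivator, fell in each line, between -2.13 and -1.45. Epas1, which encodes HIF-2α, averaged at most 5.37 CPM in any group, with wtATMIN APH 24 h the highest.

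Of 15 pyruvate oxidation genes, 5 rose and 3 fell in ATM knock-out, 4 rose and 3 fell in wtATM, 5 rose and 2 fell in ATMIN knock-out, and 6 rose and 1 fell in wtATMIN cells. Of all genes 23.1% to 29.1% rose and 23.3% to 26.3% fell in the 4 lines, and the median log2 changes of the 15 were 0.08, 0.08, 0.09 and 0.18. The pyruvate dehydrogenase phosphatases went opposite ways in the mean over lines, Pdp1 with 1.00 ± 0.06 and Pdp2 with -0.97 ± 0.07. Dld, a subunit of the pyruvate dehydrogenase complex, rose by 0.41 and Pdk3, a kinase of the Pdk1 family, by 0.28. Of 12 partners of VEGF and adrenomedullin, 1 rose and 5 fell in ATM knock-out, 3 rose and 2 fell in wtATM, 4 rose and 4 fell in ATMIN knock-out, and 2 rose and 7 fell in wtATMIN cells, beside those same shares of all genes and with medians of -0.27, 0.01, 0.08 and -0.66. The VEGF coreceptors Nrp1 (0.70) and Nrp2 (-0.67) moved apart in the mean over lines. Vegfb changed by -0.75 and Figf by 0.45. Of 9 tested mitophagy partners of Bnip3, 2 rose and 4 fell in ATM knock-out, 1 rose and 5 fell in wtATM, 1 rose and 4 fell in ATMIN knock-out, and 3 rose and 3 fell in wtATMIN cells, again beside 23.1% to 29.1% and 23.3% to 26.3% of all genes, with medians of -0.14, -0.26, -0.19 and -0.12. In the mean over lines the mitophagy receptor Fundc1 rose by 0.99. The autophagy adaptor Sqstm1 changed by -0.75, Bcl2l1 by -0.37 and Map1lc3b by -0.31.

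Txnip, which restrains glucose uptake and is a target of the glucose sensor MondoA, averaged 42.0 ± 6.004 CPM in ATM knock-out, 32.9 ± 0.743 CPM in wtATM, 30.7 ± 1.01 CPM in ATMIN knock-out and 71.6 ± 1.38 CPM in wtATMIN cells in DMSO at 24 h (SD, n = 2 each). With APH at 24 h it averaged 563 ± 12.9, 241 ± 12.04, 90.8 ± 1.01 and 194 ± 3.67 CPM in the same order. It was higher with APH in each line at 24 h, by 3.74 ± 0.13, 2.87 ± 0.13, 1.56 ± 0.13 and 1.44 ± 0.12 on the log2 scale, in the comparison in which Hk2, Slc2a1, Pgk1 and Ldha were lower. The MondoA list had 5 tested genes, and Myc was counted among them. Of these 5, 3 rose with time in DMSO in wtATM, 1 rose and 1 fell in ATMIN knock-out, and 3 rose and 1 fell in wtATMIN cells. In ATM knock-out cells their 5 changes did not pass. Of all genes 23.1% to 29.1% rose and 23.3% to 26.3% fell. The medians of the 5 were -0.08, 0.25, 0.15 and 0.35 in ATM knock-out, wtATM, ATMIN knock-out and wtATMIN cells. In the mean over lines, Txnip changed with time in DMSO by 1.25 ± 0.07, Arrdc4 by 0.87 ± 0.10, Mlx by 0.22 ± 0.05 and Myc by -0.32 ± 0.03.

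Across the 32 samples the 10 genes were related to each other to different degrees. Pearson's r of log2 CPM ran from -0.33 to 0.97 over the 45 pairs, with a median of 0.63, and the 5 negative values all involved Adm. These values describe samples that share lines, times and treatments, so they carry no p. The rankings that follow left out the 10 genes themselves, Pgk1-rs7 and genes without a symbol or with a clone name. The genes most like the mean of the 10 were Aldoa (r = 0.98), Fam162a (0.97), Ldha-ps2 (0.96), Eno1 (0.96) and Ak3l2-ps (0.94). Ldha-ps2 is a pseudogene of Ldha, and reads may be shared with it. Among the genes ranked, the most alike was Lsm11 for Hk2 (0.96), Rhbdd3 for Ldha (0.96), Rapgef1 for Slc2a1 (0.96), Lsm6 for Adm (0.96) and Arid1b for Egln3 (0.94). It was Cap1 for Pgk1 (0.93), Myh9 for Pfkp (0.93), Higd1a for Pdk1 (0.93), Frmd6 for Vegfa (0.92) and Dym for Bnip3 (0.82). Slc2a1 and Ldha were closer to each other (0.97) than to the genes ranked for them. Levels per kilobase of the length that the authors' tables give were averaged over the DMSO 4 h samples of the 4 lines only. Ldha (1551 CPM per kb) and Pgk1 (715) had the highest, followed by Slc2a1 (86.1) and Bnip3 (63.9). Adm (8.64) and Egln3 (9.23) had the lowest. The Adm value rests mostly on ATM knock-out cells, with a mean of 40.4 CPM, against 0.990 to 5.15 CPM in the other lines. With GENCODE's gene lengths Pgk1 (585) came before Ldha (430), so the order of these 2 depends on the annotation. In the authors' deposited tables, which cover 10 of the comparisons, 95 of 100 calls of these genes were the same, 4 were called by edgeR only and 1 by the authors only.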

How the data were processed

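Total RNA of 32 samples was extracted with TRIzol and made into TruSeq libraries, per the labels' protocols. The authors deposited raw read counts per gene; Bowtie2 2.4.0, TopHat2 2.0.13, DESeq2 1.6.3 and the build mm10 are named in the submitters' processing notes, while the counting tool, its strand setting and the annotation release are not given in the sources used here. The authors also deposited 10 comparison tables with log2 fold changes, p-values and adjusted p-values, which gave the symbols of 16476 genes and a comparison of calls. GENCODE M21 gave a further 21380 symbols, and 1161 genes had none. The 120 columns of per-sample values in the comparison tables were not used. In the column names of the count table, neg and pos were read as knock-out and wild type, and AT and UT as APH and DMSO, the only treatments in the labels.

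Counts were analysed with edgeR 4.0.16 in R 4.3.3: genes were filtered with filterByExpr, scaled by TMM and fitted by the quasi-likelihood method over all 32 samples with 1 coefficient for each of the 16 groups, so that all groups share 1 estimate of the spread. P-values were adjusted by Benjamini-Hochberg over the 18484 genes tested in each of 37 comparisons. Totals of 9321329 to 21020662 reads a sample set the precision, and the common biological coefficient of variation was 0.0643. The alternative settings were scaling by RLE size factors or by library size alone, TMM without Gm42418, no filter, a replicate block, the compared groups only, DESeq2 1.42.0 and leaving out each library. Pgk1 summed with Pgk1-rs7 and leaving out both ATM knock-out APH 4 h libraries were added after seeing the data. The named genes were the 10 members, the 4 genes a list with the lowest p in the mean time change of the 4 lines, Hif1a, Epas1, Txnip and Gapdh, and the genes with the highest r to each member. Members, Pgk1-rs7 and genes without a symbol or with a clone name were left out of the ranking by r. The members and lists were chosen with earlier results of these data known.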

Additional observations from a re-analysis of the deposited data

Results flagged for a closer look

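Each of the following 35 values is a difference between groups that was itself tested as an interaction in edgeR's quasi-likelihood fit and passed at an adjusted p under 0.05. For the change with time in DMSO (24 h over 4 h), the ATM knock-out line minus wtATM gave 9 log2 values: 2.08 for Bnip3, 0.96 for Hk2, 0.88 for Vegfa, 0.78 for Pdk1, 0.75 for Ldha, 0.69 for Slc2a1, 0.46 for Pgk1, 0.43 for Pfkp and 3.14 for Adm. The ATMIN knock-out line minus wtATMIN gave -2.43 for Adm, a call that was lost without single libraries. Both Adm values depend on the prior count, since wtATM libraries in DMSO held 2 to 15 reads and ATMIN knock-out libraries in DMSO 3 to 27 reads of this gene.

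For the response to APH, the ATM knock-out line minus wtATM gave -0.46 at 24 h and -0.60 at 4 h for Slc2a1. The ATMIN knock-out line minus wtATMIN gave -0.45 at 24 h for Vegfa, and -0.82 for Bnip3 and -0.84 for Egln3 at 4 h. Only the Slc2a1 difference at 4 h kept its call whichever library was left out, and it did not pass in the fit to the compared groups only. The other calls were each lost without single libraries.

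Within a line, the APH response at 24 h minus that at 4 h passed for Hk2, with -0.62 in ATM knock-out, -0.79 in wtATM, -1.02 in ATMIN knock-out and -0.73 in wtATMIN cells. For Ldha the values were -0.30, -0.35, -0.39 and -0.45 in the same order, and for Pgk1 they were -0.38, -0.25, -0.28 and -0.33. In ATM knock-out cells Pdk1 (-0.36) and Adm (-0.68) also passed, and both calls were lost without single libraries. In wtATM cells Vegfa (-0.47), Slc2a1 (-0.39) and Egln3 (-0.95) did, calls that were each lost without at least 1 library, and in ATMIN knock-out cells Vegfa (-0.96), Bnip3 (1.01) and Pfkp (0.30) did. Single libraries also decided the calls of Pfkp there, of Pgk1 in wtATM and ATMIN knock-out cells and of Ldha in wtATM and ATM knock-out cells.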

How the results depend on the processing

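Of the 370 values for the 10 genes in 37 comparisons, none reversed its direction while called, under any setting run. Over the settings other than leaving out a library, 3193 of 3276 values stayed on the same side of the threshold, 44 lost a call and 39 gained a call. Scaling by library size alone lost 16 and gained 4; it moved the median log2 change of all genes in DMSO to 0.01 in ATM knock-out, 0.09 in wtATM, 0.12 in ATMIN knock-out and 0.16 in wtATMIN cells, and with APH over time to between 0.15 and 0.24. The fit to compared groups only, which gave 366 values, lost 11 and gained 9, DESeq2 lost 7 and gained 2, no filter lost 5 and gained 10, and RLE factors lost 3 and gained 1. Leaving out both ATM knock-out APH 4 h libraries gave 320 values, of which 11 gained a call and no value lost its call. The count of genes whose APH response was higher in a knock-out line than in its wild type was 0 in edgeR and in DESeq2, but 1 at an unadjusted p under 0.05, 1 with the compared groups only, and 0 to 1 when a library was left out; the count lower there was 5 (3 to 8 when a library was left out, 17 at an unadjusted p under 0.05). Leaving out a library also moved the counts higher with APH at 4 h (4, between 3 and 6), higher in the 24 h minus 4 h response (2, between 1 and 3) and lower in the knock-out minus wild-type time change (1, between 0 and 1). The cause was not tested. Of 252 called values, 202 kept their call whichever of the 32 libraries was left out. Replicate numbers are shared between groups, but samples of 1 number did not deviate together (r between -0.21 and 0.17); with a replicate block no value lost its call, 2 gained a call, and no count of calls moved by over 1.5 times. Depth limits Adm in wtATM and ATMIN knock-out cells, at 1 to 27 reads a library.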
